A study of Mus musculus with 10 samples.

Results

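The splicing regulator Rbfox2 binds RNA, and its RNA targets were mapped here by iCLIP, which recovers RNA that ultraviolet light has crosslinked to a protein. The clusters described below are those that stood less than 2-fold above the control library, which made them the least enriched entries of the deposited list. They were chosen by 1 value only, a finite fold over the untagged library below 2, and 4162 of 35639 clusters (11.7%) met that rule. Of the remaining 31477 clusters, 15477 had a finite fold of 2 or more and 16000 had an infinite fold, that is, no coverage in the untagged library. The fold is therefore a description of the members and is not tested.

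The cells were mouse V6.5 embryonic stem (ES) cells grown with ESGRO on gelatinized flasks. For iCLIP, both cell populations carried a lentiviral, doxycycline-inducible human RBFOX2 in the pSLIK Hygro vector and were selected in hygromycin, so the mapped protein was an added human copy and the control cells overexpressed it too. In FHFOX2 the protein carried a FLAG-HA tag and in UntagFOX2 it had none. Both were induced with 1 µg/ml doxycycline for 24 h, irradiated at 150 mJ/cm2 and taken through serial FLAG and HA immunoprecipitation. PCR ran for 16 cycles in both libraries, and 7 further cycles were applied to UntagFOX2. With 1 tagged and 1 untagged library there was no replicate, so comparisons between clusters are given without a test. For RNA-seq, cells carried control hairpins (shLuc against luciferase, shGFP against GFP) or Rbfox2 hairpins (shFox2-1, shFox2-2). They were kept for 3 days in puromycin at 1 µg/ml and for 24 h without it. Each hairpin was used in duplicate, and each deposited expression value pools a hairpin's 2 libraries.

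Rbfox proteins recognise the short RNA motif GCAUG, mostly in introns near the exons they regulate. In an immunoprecipitation without a tag the antibodies have no intended target, and the RNA that is still recovered is the background of the procedure. Abundant RNAs are commonly part of such background. The fold over the untagged library is the usual measure by which a crosslinked site is set apart from that background.

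Among the hosts were microRNA (miRNA) genes, whose short clusters are shown first because paired family members fell on either side of 2-fold. miRNAs are short RNAs cut from hairpin precursors, and bases 2 to 8, the seed, select their targets. Clusters were assigned to 19 miRNA genes, 1 each, and 9 of the 19 were under 2-fold, a share of 47.4% (95% exact binomial interval 24.4% to 71.1%, counting error only). The share over all clusters was 11.7%. Of the 19 genes, 6 lay in 1 stretch of chromosome 12, 3 of them members. Neighbouring genes need not be independent, so the interval may be too narrow. The set was named after its values were seen. The mature sequences below are those of RefSeq (GRCm38.p6), matched by name, with the seed in capitals. The fold belongs to the cluster assigned to the whole miRNA gene, and no value is tied to either arm of the hairpin; 1 mature sequence per gene is printed to identify it. The genes of the first 2 pairs yield mature RNAs that share a seed, and their clusters lay on either side of 2, Mir27a at 1.34 and Mir27b at 2.23, Mir222 at 1.56 and Mir221 at 2.01. The next 3 genes are well studied (miR-302a in ES cells, miR-200c in epithelia, miR-126a in endothelium), and their clusters had folds of 1.37, 1.56 and 1.62.
miR-27a-3p, of Mir27a, a member: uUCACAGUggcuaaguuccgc
miR-27b-3p, of Mir27b, not a member: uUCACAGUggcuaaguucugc
miR-222-3p, of Mir222, a member: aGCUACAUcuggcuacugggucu
miR-221-3p, of Mir221, not a member: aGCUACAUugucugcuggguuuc
miR-302a-5p, of Mir302a, a member: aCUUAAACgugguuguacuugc
miR-200c-3p, of Mir200c, a member: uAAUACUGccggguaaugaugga
miR-126a-3p, of Mir126a, a member: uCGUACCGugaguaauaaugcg

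The motif GCAUG was searched on the transcribed strand of the precursor hairpins. It was found in 1 of the 9 hairpins that hosted a member, 1 of the 10 that hosted another cluster, and 76 of 1005 mouse hairpins in the table (7.56%). The 2 hairpins are printed with the motif in capitals. A match is a description and not a site, and the clusters' own bases were not read, because no mm9 genome was used here.
Mir350, member: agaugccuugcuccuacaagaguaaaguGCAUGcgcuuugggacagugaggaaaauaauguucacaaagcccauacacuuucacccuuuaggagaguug
Mir221, not a member: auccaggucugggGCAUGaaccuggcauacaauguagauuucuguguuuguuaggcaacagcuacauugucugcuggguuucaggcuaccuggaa

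The miRNA members had tagged coverages of 149 to 367, and the 19 clusters were 40 to 66 bases wide. Mir222 (mm9 chromosome X, 18724022 to 18724074) had a coverage of 175, against 225 for Mir221 (X, 18723428 to 18723481). Mir27a (chromosome 8, 86732600 to 86732653) had a coverage of 300, against 250 for Mir27b (chromosome 13, 63402042 to 63402094). Mir27a was thus the more covered of that pair and the less enriched, because its untagged coverage was 50 units against 25 for Mir27b. In 7 of the 9 members the untagged coverage was 25 units, and in the other 2, Mir27a and Mir485, it was 50. Outside the member set, the clusters of Mir18b, Mir27b, Mir221 and Mir323 (4 clusters) also stood at 25 units and passed 2-fold through a higher tagged coverage alone.

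The value of 25 recurred throughout the list. Dividing the deposited coverage by the deposited fold returned whole numbers, and 99.7% of the 15314 finite clusters for which 1 whole number could be told lay on multiples of 4.474, rounded. The untagged coverage was therefore recovered as a whole number of units before scaling by 4.474. Among the members it was 25 units in 1316 clusters, 50 in 516, 75 in 263 and 100 in 143, so these 4 values held 53.8% of members. Tagged coverage of all clusters showed the same spacing, with 1166 clusters at 150, against 67 at 149 and 35 at 151, and 708 at 175, against 139 at 174 and 74 at 176. The unit is not defined in the file. Below, 25 units are taken as 1 read, which is a reading of the values and not a statement of the authors.

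**Figure D1:**
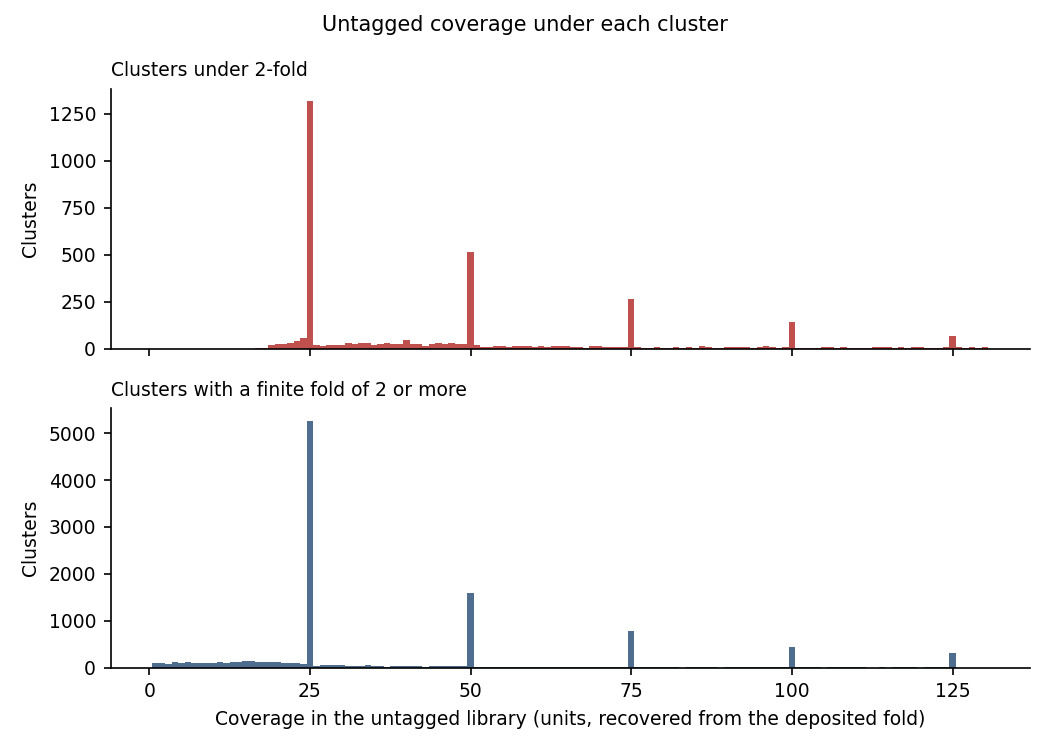
Number of clusters (y axis) at each untagged coverage in units (x axis, up to 130), for clusters under 2-fold (top) and clusters with a finite fold of 2 or more (bottom). Both comb patterns have their highest tooth at 25 units, with 1316 members and 5265 other finite clusters, and further teeth at 50, 75 and 100.

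Read in this way, 1515 members (36.4%) had 1 untagged read or less under them, 1784 had 26 to 99 units and 863 had 100 or more. The most frequent combination, in 186 members, was a tagged coverage of 150 over 25 untagged units, which is 6 reads over 1 read and gives a fold of 1.34. The next were 175 over 25 (fold 1.56, 111 members) and 200 over 25 (fold 1.79, 86 members). The folds of the members ran from 1.05 to 1.99 with a median of 1.56 (quartiles 1.36 and 1.79).

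The deposited q-values were small even for such clusters, since the list had been filtered on them, and the highest q of any member was 0.0442. For all 15413 infinite-fold clusters with a q above 0, q equalled 0.5 raised to the power of the coverage, within 1%. For 9193 of 9193 finite clusters checked, q equalled a one-sided binomial probability of the tagged coverage against the scaled untagged coverage, within 1%. Of the 19639 finite clusters, only ones of limited coverage and very small q were checked. Members with the highest q were therefore not among them. In these formulas each unit of coverage counts as a separate draw, so a read of 25 units enters 25 times. A 95% interval on the fold was therefore computed from reads (exact binomial on tagged and untagged reads, scaled by 4.474). PCR copies are not independent molecules, so the interval covers counting error only.

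By this interval, 4114 of the 4162 members (98.8%) had an upper bound of 2 or more, and 86 had a lower bound above 1. The line at 2 was no sharper from the other side. Of the remaining 31477 clusters, 26657 (84.7%) had a lower bound under 2, among them 15075 of the 16000 with an infinite fold. Mir222 illustrates the width, with a fold of 1.56 and an interval of 0.201 to 70.5, and so does Mir221, with 2.01 and 0.279 to 88.2. At this depth the 2 clusters could not be told apart.

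In 48 members the whole interval lay under 2. They formed 43 separate stretches in 40 genes and had a median coverage of 5591 and a median width of 461 bases, against 300 and 80 bases for all members. Many lay in abundant mRNAs. Ddx17, which encodes a DEAD-box RNA helicase, held the lowest fold of all, 1.05 (interval 0.795 to 1.41), at chromosome 15, 79359896 to 79360457, and a second such cluster at 1.21 (0.864 to 1.73). Hnrnpl, an hnRNP splicing regulator, stood at 1.32 (1.05 to 1.67), Pcbp2, a poly(C)-binding protein, at 1.41 (1.13 to 1.78), and Sfpq, a paraspeckle protein, at 1.44 (1.12 to 1.87). Ctnnb1, which encodes beta-catenin, stood at 1.20 (0.930 to 1.57). Tet1, an enzyme that oxidises 5-methylcytosine and is abundant in ES cells, held 2 of the 48 clusters, at 1.20 (0.915 to 1.59) and 1.35 (0.954 to 1.96). For Hnrnpl, Pcbp2 and Sfpq the interval also lay above 1. These members were picked by the fold itself, so the intervals describe its counting error and are no test. A narrow interval also needs many reads, and the lowest coverage among the 48 was 2060. Their high coverage therefore follows from the pick.

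**Figure D2:**
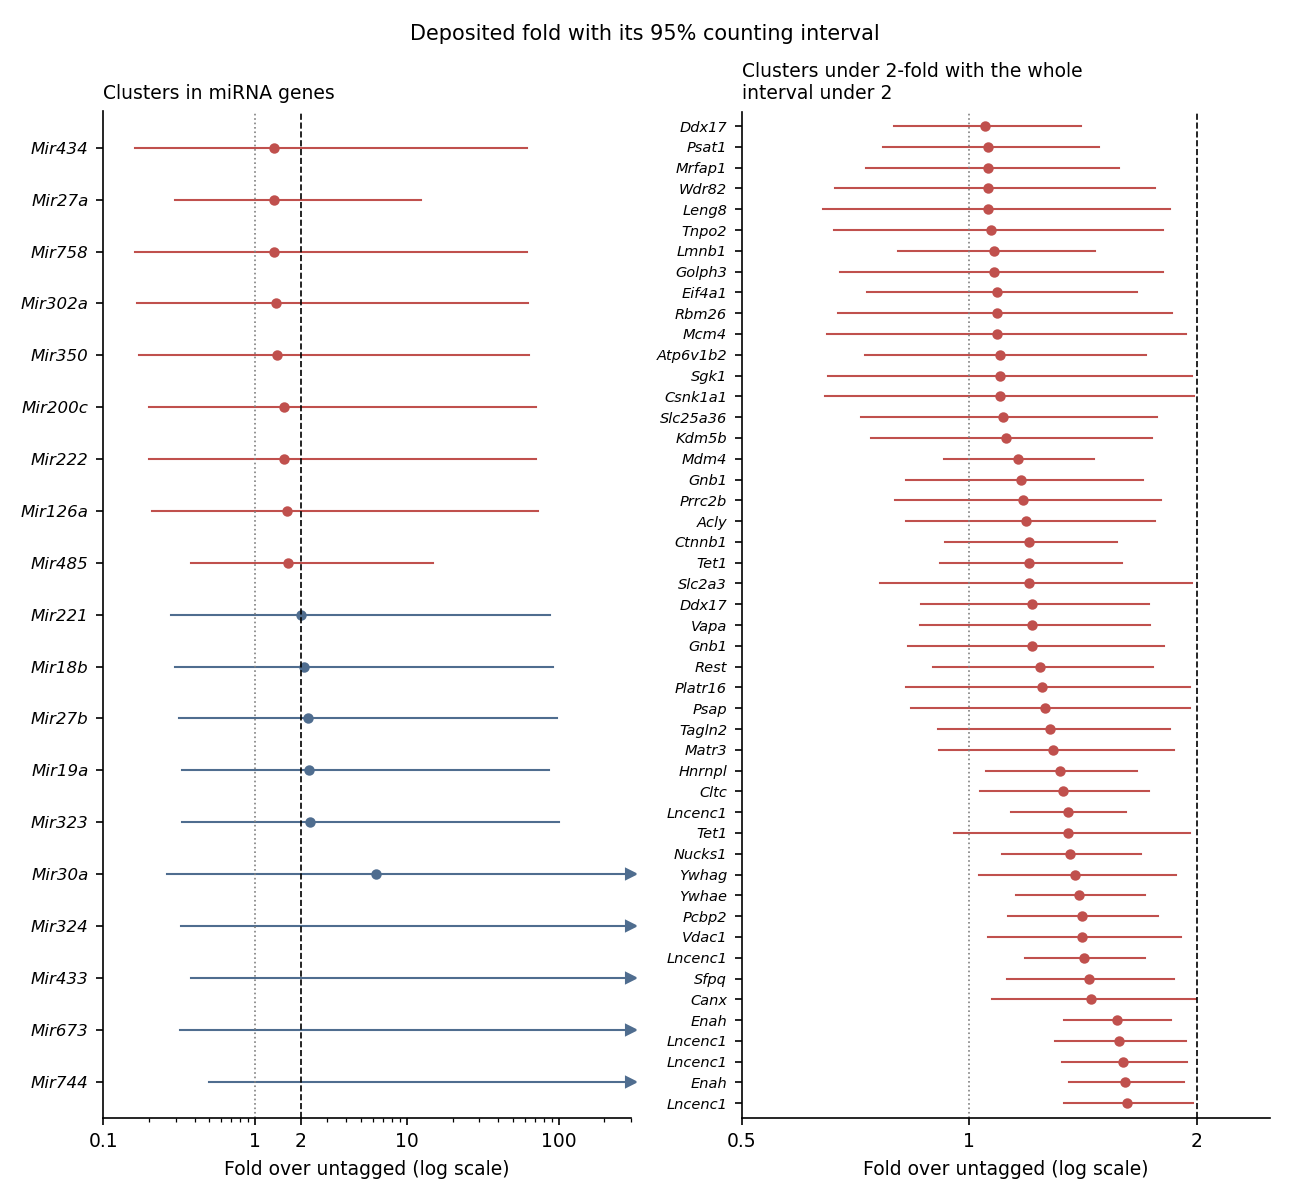
Fold over the untagged library (x axis, log scale) with its 95% counting interval (lines) for the 19 clusters in miRNA genes (left) and for the 48 members whose interval lies under 2 (right), red for members and blue for other clusters. Points are the deposited folds, arrows mark upper bounds beyond the axis or infinite, and the dashed line marks 2; every interval on the left crosses it, whereas those on the right end below it.

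The members with the highest coverage came from 3 crowded places. Enah, an actin regulator of the Ena/VASP family, held 5 of the 10 highest, within a same-strand stack of 38 overlapping clusters. The top one (chromosome 1, 183861883 to 183861950, minus strand) had a coverage of 35232 and a fold of 1.91 (interval 1.62 to 2.26). Deaf1, a transcription factor, held 2 in a stack of 24 clusters, with coverages of 24484 and 23417 and folds of 1.96 and 1.85. Lncenc1, a long noncoding RNA gene of ES cells, held 3 in another stack of 38, with coverages of 23079, 22643 and 22375 and folds of 1.35, 1.60 and 1.65. Clusters in a stack share reads, so each stack is a single place rather than several observations.

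At the other end of the fold range, Psat1 (phosphoserine aminotransferase, of serine synthesis), Mrfap1, Wdr82 (a subunit of the SET1 histone methyltransferase complexes) and Leng8 each held a cluster at a fold of 1.06, with coverages of 5552, 4099, 2613 and 2240. The summit of the Psat1 cluster lay 224 bases from the end of its locus. Just inside the line at 2, clusters of Smyd3, Pask, Wdr26, Gja1 and Rdx stood at 1.99 with coverages of 10210, 2923, 2664, 1836 and 1780. Just outside it, clusters of Atad1, Rab5c, Rbpms, Idh3g and Wwox stood at 2.00 with coverages of 2136, 1437, 1286, 1012 and 895. Among these 10 the 5 members were chosen for high coverage within a shared fold, as were the 5 others, so the ranges describe the edge of the rule and nothing more.

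Coverage and width were compared over all clusters. The members had a median coverage of 300 (quartiles 195 and 550), against 775 (375 and 2069) for the other finite clusters and 259 (196 and 400) for those with an infinite fold. Their median width was 80 bases, against 128 and 76. The members therefore resembled the infinite-fold clusters in size more than they did the other finite ones. Because coverage enters the fold, this is a property of the rule. Overlap with another cluster on the same strand was found for 218 members (5.24%), against 8.17% of the remaining clusters, 12.9% of the other finite ones and 3.57% of the infinite ones. These 218 members fell in 141 stacks, of which 99 also held clusters outside the member set.

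Position within the host gene was not used by the rule. It was read from the interval of the gene in the expression table, here called its locus, for the 3510 members (84.3%) whose summit lay inside the locus of their assigned gene. In the last 1 kb of the locus, where the 3′ end of the mRNA lies, 586 members were found (16.7%, 95% exact binomial interval 15.5% to 18.0%). The share was 5.23% for the remaining clusters, 6.99% (6.57% to 7.44%) for the other finite clusters and 3.53% (3.23% to 3.85%) for the infinite ones. Of the 26857 entries, 3611 shared their locus with another entry, so its end may be that of a neighbour. Over loci held by 1 entry the shares were 19.1% for members and 5.90% for the remaining clusters. In the first 2 kb the members stood at 4.53% (3.87% to 5.27%) and the remaining clusters at 3.62% (3.40% to 3.84%). Host loci were also shorter, with medians of 55.9 kb for members and 72.6 kb for the remaining clusters. In both sets nearly all clusters lay on the strand of their host gene, 3246 of 3251 members with a known strand and 24357 of 24402 others.

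The share near the locus end was lower in each higher fold bin up to 30 and did not step at 2. It was 32.2% between 1 and 1.25, 16.9% up to 1.5, 15.1% up to 1.75 and 13.1% up to 2. Beyond the line it was 12.3% up to 2.5, 9.28% up to 3, 7.61% up to 5, 5.25% up to 10 and 3.05% between 10 and 30, but 5.59% (3.35% to 8.69%) at 30 or more. The counting intervals of the bins on either side of the line overlapped. The share also differed with the untagged coverage of the members, from 8.03% (6.60% to 9.66%) at 25 units or fewer through 16.3% (14.5% to 18.3%) at 26 to 99 units to 32.9% (29.5% to 36.5%) at 100 units or more. At the same 3 levels the other finite clusters stood at 5.94%, 6.79% and 9.80%. Of the 48 members with the whole interval under 2, 36 lay inside their locus and 22 of these were in its last 1 kb (61.1%, 43.5% to 76.9%). These 48 needed a high coverage to enter, and its part in that share was not tested.

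**Figure D3:**
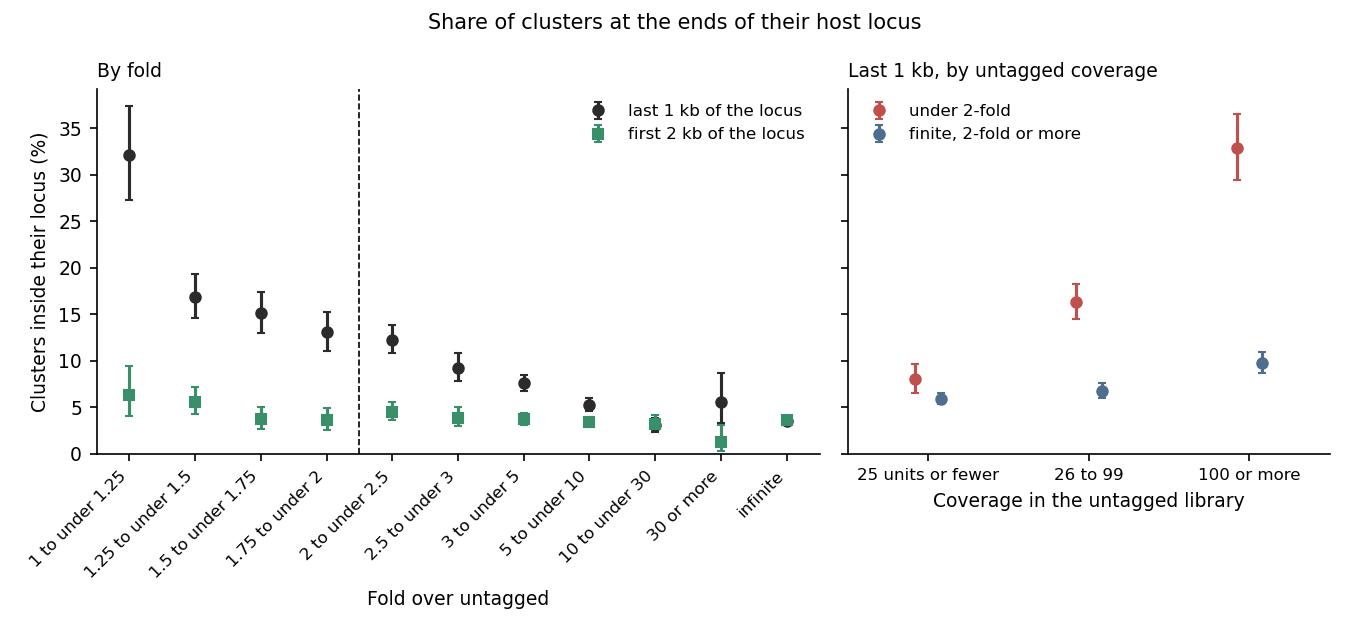
Share of clusters inside their locus (y axis, percent) that lie in its last 1 kb or first 2 kb, by fold bin (left), and in its last 1 kb by untagged coverage in units (right); bars are 95% exact binomial intervals and cover counting error only. The last-1-kb share falls from 32.2% in the lowest fold bin to 3.05% between 10 and 30, across the dashed line at 2, and stands at 5.59% at 30 or more and 3.53% at infinite fold, and on the right it reaches 32.9% for members with 100 units or more against 9.80% for the other clusters.

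The comparison was repeated inside genes that host both kinds of cluster, where the level of the gene is shared. In 1860 such genes 436 of 3117 members (14.0%) and 493 of 12725 other clusters (3.87%) lay in the last 1 kb. Gene by gene, the share was higher for members in 361 genes, lower in 277 and equal in 1222. For the first 2 kb the pooled shares were 3.46% and 2.19%. Gene by gene the share was higher for members in 93 genes, lower in 206 and equal in 1561. Members were fewer per gene than other clusters. A gene with few members can have none in a window for that reason alone. It then scores as lower if any other cluster lies there. The counts by gene thus lean towards lower in both windows, and they do not decide against the pooled shares.

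Genes with no cluster outside the member set show both ends of this pattern. Of 2526 host genes, 1707 (67.6%) held 1 member, 462 held 2 and 82 held 5 or more. In 399 genes every cluster was a member, 358 of them with a single cluster and 8 with at least 3. The 8 were Lin28a with 4 of 4 clusters, and Hspa5, Gja1, Ptges3, Ybx2, Mrpl24, Fam8a1 and Nsd2 with 3 of 3 each.

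Lin28a encodes an RNA-binding protein of ES cells that blocks let-7 miRNA maturation. Its 4 clusters (listed under Lin28, chromosome 4, minus strand) had coverages of 1264, 1656, 309 and 329 and folds of 1.83, 1.17, 1.36 and 1.47, in order from the 3′ end of the locus. Their summits, the positions the file names as such, lay 65, 1527, 2069 and 2673 bases from that end in a locus of 15.5 kb, so all lay in its 3′ part. The expression of Lin28a was 89.4 FPKM (sequenced fragments divided by transcript length in kilobases and by library size) in shLuc, 99.3 in shGFP, 94.8 in shFox2-1 and 93.9 in shFox2-2, and the 4 values overlapped within their deposited intervals. The interval of its widest cluster, at chromosome 4, 133560672 to 133560914, was 0.636 to 2.34.

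Hspa5 encodes the endoplasmic reticulum chaperone BiP. One of its clusters (chromosome 2, 34627771 to 34627848, coverage 267, fold 1.19) had its summit 0.192 kb from the start of the locus. The other 2 overlapped each other, with summits 366 and 147 bases from its end, with coverages of 580 and 831 and folds of 1.30 and 1.49. Gja1, the gap junction protein connexin 43, had summits at 1356, 599 and 99 bases from its end with coverages of 300, 1836 and 890 and folds of 1.34, 1.99 and 1.53. Ptges3, the Hsp90 co-chaperone p23, had them at 1039, 409 and 174 bases with coverages of 587, 805 and 2401 and folds of 1.31, 1.80 and 1.65. Ybx2, an RNA-binding protein of germ cells, differed from these in its low expression, 2.65 to 4.29 FPKM in the 4 hairpins. Its clusters had coverages of 839, 959 and 200 and folds of 1.88, 1.72 and 1.79, and none lay in its last 1 kb. In Mrpl24 and Nsd2 too no member lay in the last 1 kb, and the 3 members assigned to Fam8a1 lay in no locus of the table. The members of Mrpl24 also lay inside the entry of BC023814, so the end of that locus may not be its own.

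The genes with the most members were long ones, apart from Lncenc1, which had no locus to measure. Several misplaced gene assignments were among them. The deposited gene ID named Fgfr2 for 32 members, but 27 of these lay inside the locus of Ctbp2, 2 in that of Ate1, 1 in that of Oat and 2 in none, and none in that of Fgfr2. Ctbp2, a transcriptional corepressor, carried 11 further members under its own ID. Galnt2 was named for 25 members, of which 1 lay in its locus and 8 lay in that of Usp10. The 14 members assigned to Immp2l lay in no locus of the table. In all, 652 members lay outside the locus of their assigned gene. Of these, 430 had a locus elsewhere, 175 had a symbol without an entry and 47 had an ID without a symbol.

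The other leading genes, apart from Lncenc1, held their members inside their own loci. Rad51b, a homologous recombination gene, had 17 members of 69 clusters in a locus of 517 kb, with coverages of 168 to 864. Exoc4, a subunit of the exocyst, had 15 of 102 in 724 kb (coverages 150 to 873), and Smyd3, a lysine methyltransferase, had 13 of 136 in 563 kb (coverages 227 to 10210). In each of the 3 the highest coverage outside the member set, at 7649, 12770 and 61527, was above that of any member. Kat6b, a histone acetyltransferase, had 12 of 44, and Lncenc1 had 18 of 55 but only 5 separate stretches and no entry in the expression table. Rad51b (1.33 to 1.84 FPKM in the 4 hairpins) and Smyd3 (3.55 to 4.47) were lowly expressed and held no member in the last 1 kb. Ctbp2, at 36.1 to 50.2 FPKM, held none there under its own ID either.

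Rbfox2 itself held 4 members among 51 clusters. Of these, 3 lay in its locus (listed as Rbm9, chromosome 15, minus strand), with coverages of 310, 172 and 263 and folds of 1.38, 1.54 and 1.89, with summits 82.2, 52.4 and 8.11 kb from the start of a locus of 224.6 kb. The fourth, at chromosome 15, 76910853 to 76911009, lay outside the interval of any table entry, with a coverage of 787 and a fold of 1.48 (interval 0.560 to 5.03). None of the 4 was in the last 1 kb of the locus. Among its other clusters, 21 had an infinite fold and the highest coverage was 12447.

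Gene lists were compared by the share of their clusters that were members, beside the 11.7% of all clusters, and the intervals given are 95% exact binomial ones. Clusters of 1 gene are not independent, so these intervals are too narrow. The share was 32.2% (20.6% to 45.6%) for the SR proteins and Tra2, splicing activators, with 19 of 59 clusters in 8 of 13 genes that had a cluster. Pluripotency genes stood at 29.2% (21.7% to 37.6%), with 40 of 137 clusters. Cytosolic ribosomal protein genes stood at 27.1% (13 of 48), chaperones at 24.4% (20 of 82), hnRNP proteins at 22.6% (30 of 133) and noncoding and snoRNA host transcripts at 21.1% (8 of 38). The interval of the noncoding list, 9.55% to 37.3%, included the share of all clusters. Other splicing regulators (15.5%, 46 of 297), translation factors (13.0%, 15 of 115), chromatin regulators (13.0%, 46 of 353) and the actin and tubulin cytoskeleton (11.4%, 19 of 166) were closer to the share of all clusters. The replication-dependent histones, whose mRNAs have no poly(A) tail, had no cluster of either kind.

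Some genes gave many of the members of their list. Jarid2, a partner of the Polycomb complex PRC2, gave 13 of the 40 pluripotency members. It had 41 clusters, so its own share was 31.7%, near the 29.2% of the list. Their summits were spread along the locus of 190.1 kb, from 4.16 kb after the start to 883 bases before the end. Their coverages ran from 175 to 1191, and their folds from 1.27 to 1.92. The naive pluripotency factor Esrrb gave 5 of 22 clusters, with coverages of 325, 724, 528, 296 and 3208 and folds of 1.45, 1.11, 1.18, 1.95 and 1.79. The last of these (chromosome 12, 87852140 to 87852466) was the only one with an interval above 1, at 1.06 to 3.22. Tfcp2l1, another naive pluripotency factor, gave 4 of 15, one with a coverage of 5720.

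Among splicing regulators the members were spread over 8 of 13 SR and Tra2 genes, 17 of 26 hnRNP genes and 17 of 36 other regulators that had a cluster. Ddx17 had 4 of 5 clusters in the set, with coverages of 912 to 7201, and its single other cluster stood at a fold of 2.01. Tra2a had 4 of 9 (folds 1.14 to 1.42), Srrm2 had 3 of 5 (1.20 to 1.26) and Srsf10 had 3 of 9 (1.48 to 1.58). Taf15, a FET protein, had 5 of 10 (1.09 to 1.93), Syncrip had 4 of 10 (1.17 to 1.77) and Qk, the Quaking protein, had 8 of 34 (1.22 to 1.72). In Tra2a and Taf15 the other clusters reached finite folds of 6.26 and 6.20, so both kinds of cluster stood in 1 gene. Among ribosomal protein genes, both clusters of Rps19 (folds 1.30 and 1.38) and of Rps7 (1.81 and 1.86) were members. The single cluster of Gas5, a snoRNA host transcript, was a member with a coverage of 11767 and a fold of 1.94, and Meg3, an imprinted noncoding RNA, had 4 of 13.

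By gene class in RefSeq, 3995 members lay in protein-coding genes, which was 11.6% of the 34409 clusters assigned to such genes. Long noncoding RNA genes gave 45 of 266 clusters (16.9%, 12.6% to 22.0%) and pseudogenes 5 of 17. All 3 clusters in small nuclear RNA (snRNA) genes were members, which leaves a lower bound of 29.2% on that share. snRNA and pseudogene reads can come from near-identical copies elsewhere, so their assignment is uncertain.

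Host expression came from the RNA-seq libraries, which the rule did not use. Over clusters, the median host FPKM was 14.0 in shLuc, 14.5 in shGFP, 16.2 in shFox2-1 and 13.2 in shFox2-2 for members. For the remaining clusters it was 9.44, 9.80, 10.6 and 8.62, so the order was the same in all 4 hairpins. The mean over hairpins had a median of 14.6 FPKM (quartiles 6.21 and 33.6) for members, 11.4 (5.10 and 25.8) for the other finite clusters and 8.39 (3.69 and 18.5) for the infinite ones. The quartile ranges overlapped widely. The FPKM is that of the assigned gene, also for the 430 members that lay outside its locus. With only clusters inside the locus of their assigned gene, the medians were 15.6 FPKM for members and 10.2 for the remaining clusters. Within the members the median was 9.73 FPKM at 25 untagged units or fewer, 14.4 at 26 to 99 and 30.5 at 100 or more. At the same levels the other finite clusters stood at 10.5, 12.4 and 12.9 FPKM. At 25 units or fewer the members were therefore not the higher of these classes. Among members with the whole interval under 2 the median was 74.5 FPKM. That last group needed a high coverage to enter, and its part in the value was not tested. Counted once per gene, the medians were 13.7 FPKM over 2371 host genes with an expression value and 8.57 over 6808 genes that host other clusters, with genes that host both in each.

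**Figure D4:**
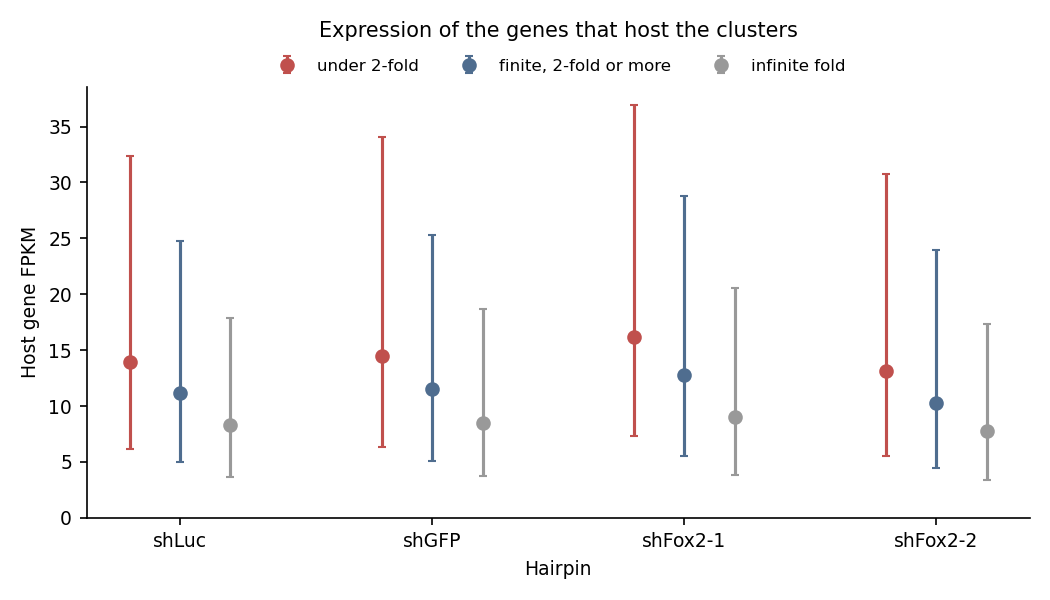
Median host gene FPKM over clusters (points, y axis) with the quartiles (bars) in each hairpin (x axis), for clusters under 2-fold, other finite clusters and clusters of infinite fold. In each of the 4 hairpins the median of the members is the highest, from 13.2 to 16.2 FPKM, and the quartile ranges overlap.

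The RNA-seq libraries had the markers of the labelled cell type. All 10 ES cell markers were expressed, with Pou5f1 at 268 to 336 FPKM, and their sum lay between 1460 and 1791 FPKM. The 23 markers of other cell types summed to 72.1 to 91.6 FPKM, with Krt8 at 19.5 to 39.0 the highest, and both Postn and Elf5 were listed at 0 in 1 hairpin. In shFox2-1 both sums were the highest of the 4 hairpins, and their part in the results below was not tested.

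Knockdown was examined in the host genes to describe whether genes with members differed in mRNA level. Rbfox2, the targeted gene, stood at 24.7 FPKM in shLuc and 23.3 in shGFP and at 8.56 in shFox2-1 and 7.21 in shFox2-2. By limma over 20281 tested genes no gene passed an adjusted p of 0.05 (0.0%), and 908 (4.48%) had an unadjusted p under 0.05. Over all tested genes these were 467 higher and 441 lower. Of 2342 tested genes with a member, 95 (4.06%) had an unadjusted p under 0.05, 59 higher and 36 lower. Of 4713 tested genes with clusters but no member, 153 (3.25%) did, 74 higher and 79 lower. With 2 values per condition, each pooled from 2 libraries, the p measures the spread between hairpins.

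A second call asked whether the deposited FPKM intervals of the Rbfox2 hairpins were apart from those of the controls, with both on the same side. It was met by 37 of 12632 expressed genes (0.293%), 22 higher (0.174%) and 15 lower (0.119%). Among 2255 expressed genes with a member it was met by 21, 15 higher and 6 lower, or 0.931%. That balance turned with the hairpin left out, to 18 higher and 21 lower without shLuc and 23 and 126 without shFox2-1, against 35 and 10 without shGFP and 294 and 50 without shFox2-2. Among 4190 expressed genes with clusters but no member it was met by 9, 6 higher and 3 lower, or 0.215%. The genes with a member had higher FPKM, as given above, and the part of that difference in the 2 shares was not tested. The median log2 difference (knockdown minus control, on log2(FPKM + 1)) was 0.016 over the genes with a member and -0.0089 over all expressed genes. Over the genes with a member it was -0.015 without shLuc, 0.047 without shGFP, -0.11 without shFox2-1 and 0.135 without shFox2-2, so its sign also turned. With log2 values centred on the median expressed gene of each hairpin, the 21 genes called were 18 higher and 3 lower, and 11 of them were called in both ways.

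After Rbfox2, the largest difference among the 21 hosts so called was that of Wdr35, of intraflagellar transport, which held 1 member among 6 clusters. Wdr35 stood at 16.6 FPKM in shLuc and 18.0 in shGFP, against 27.6 in shFox2-1 and 24.1 in shFox2-2, a log2 difference of 0.55 (standard error 0.13). Sar1a, a GTPase of COPII vesicles, stood at 36.8 and 33.5 against 50.1 and 47.6, and Srsf7, an SR splicing factor, at 100.2 and 97.9 against 135.8 and 121.7. In both genes 2 of 3 clusters were members, with coverages of 150 to 397 and of 218 to 233. Calu, which encodes the calcium-binding protein calumenin, stood at 38.4 and 40.8 against 50.1 and 53.7 (log2 difference 0.38), and Mapk14, the p38 kinase, at 38.7 and 38.9 against 53.0 and 48.0. Wdr89 shares its entry with a predicted gene, so its call is uncertain. In these genes each Rbfox2 hairpin lay above both controls. Under centring the call of Calu was lost, with a log2 difference of 0.40.

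With all 4 hairpins, 6 hosts were lower. Ptms, which encodes parathymosin, stood at 46.2 FPKM in shLuc and 53.5 in shGFP, against 35.3 in shFox2-1 and 33.0 in shFox2-2, a log2 difference of -0.53 (standard error 0.12). Its 1 member among 5 clusters had a coverage of 3015 and a fold of 1.52 and lay in the last 1 kb of the locus. Slc1a5, a neutral amino acid transporter, stood at 18.5 and 18.6 against 13.7 and 13.7, and both of its clusters were members, with coverages of 150 and 506. Map1b, a microtubule-associated protein, stood at 8.87 and 9.11 against 7.02 and 6.40. The log2 differences of Slc1a5 and Map1b, -0.41 and -0.37, were -0.40 and -0.36 under centring, where both calls were lost. For all of these genes, Rbfox2 included, the limma adjusted p was 0.91 or more. Most host genes described above did not meet the second call. Lin28a differed by 0.003 on the log2 scale (standard error 0.10), Hspa5 by -0.12 (0.14) and Jarid2 by 0.37 (0.16).

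**Figure D5:**
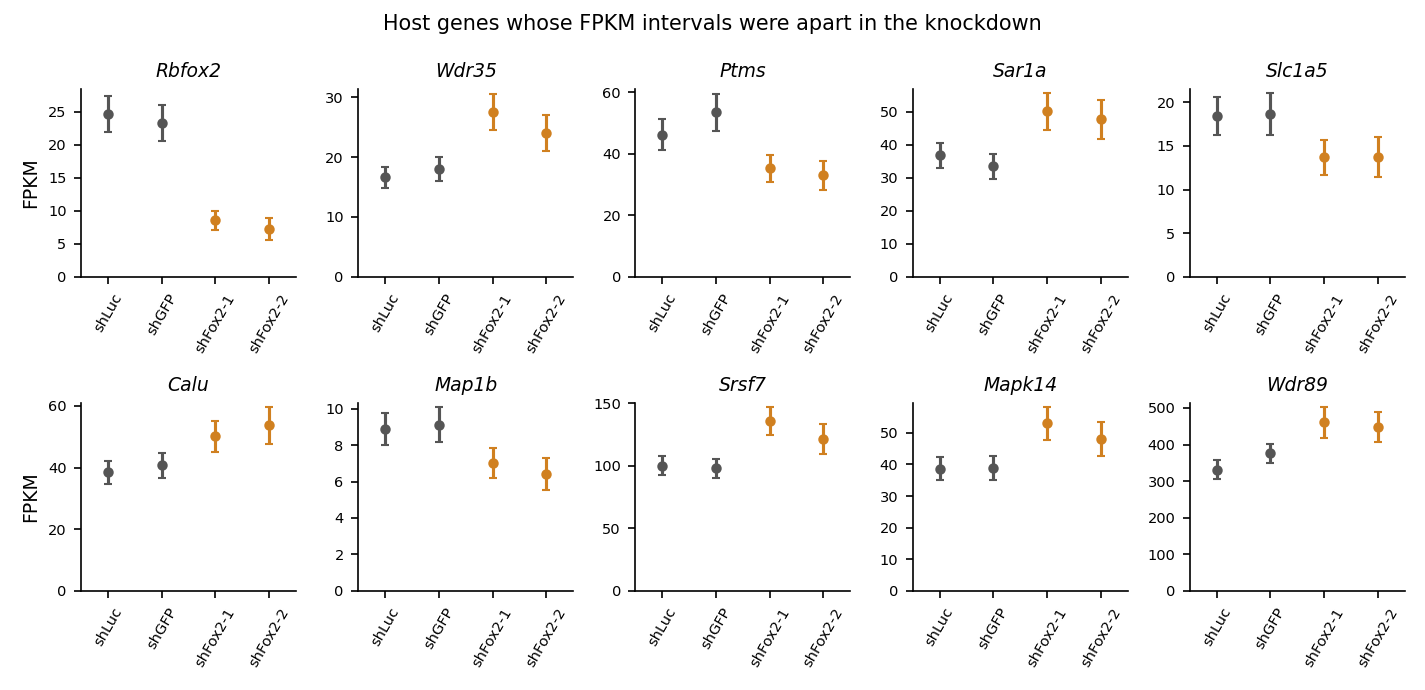
FPKM (y axis, from 0) with its deposited interval (bars) in the 4 hairpins (x axis; controls grey, Rbfox2 hairpins orange) for the 10 host genes with the largest log2 difference among those whose intervals were apart. In each panel both orange intervals lie on 1 side of both grey intervals, below them in Rbfox2, Ptms, Slc1a5 and Map1b and above them in the other 6.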

How the data were processed

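The authors deposited iCLIP clusters on mm9 with a gene ID and 1 field joining coverage (signal units), fold over the untagged library (a ratio) and q-value, as the file headers say. Expression was deposited as FPKM, with its bounds and status, for each gene in each hairpin, per the file headers; TopHat2 2.0 and Cufflinks 2.1.1 are named in the submitters' processing notes. The iCLIP aligner and cluster caller, and the depth of any library, are not given in the sources used here.

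Gene IDs were matched to symbols for 7603 of 7740 IDs, and 94.7% of members had an expression value. Limma 3.58.1 (R 4.3.3, trend) was run on log2(FPKM + 1) over 20281 genes with a value above 0 and no failed status; Ddx17 had a failed status. Expressed genes are those whose mean FPKM is at least 1. In simulated data, 100 of 100 genes changed by 2 on the log2 scale and 26 of 100 changed by 1 passed an adjusted p of 0.05, with 0 false calls. The changed genes were drawn from better expressed ones, and each gene was given a spread averaged over genes of like level. Genes with a spread of their own were not simulated, so these rates need not hold for the real genes. Other steps used Python 3.11.15, pandas 2.3.3 and scipy 1.17.1.

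The members, gene lists, call rules and named genes were chosen with earlier results of these data known. Named were the 10 members of highest coverage, the 5 of lowest fold, the 5 on either side of 2, the 10 genes with most members, genes of 3 or more clusters that were all members, up to 3 genes per list, the 10 called hosts of largest log2 difference, and Rbfox2. miRNA genes, and members with the whole interval under 2, were named after their values were seen. Alternatives were other fold thresholds, windows, filters, pseudocounts and centring, and leaving out each hairpin.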

Additional observations from a re-analysis of the deposited data

How the results depend on the processing

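With a fold threshold of 1.5 or 3, 1636 or 7984 clusters were members in place of 4162, and 1672 among clusters of at least median coverage. The ratio of member to remaining median coverage was 0.777, and 0.387 against finite clusters only, 0.852 at a threshold of 1.5 and 0.803 per gene. For width it was 0.870, then 0.625 against finite clusters and 0.934 at 1.5. For host FPKM it was 1.5, then 1.96 per gene, 1.66 at 1.5 and 1.28 against finite clusters, and 1.5 to 1.51 with each hairpin left out. The ratio of shares in the last 1 kb was 3.19, then 2.84 for the last 2 kb, 2.39 against finite clusters, 2.14 at finite folds with coverage between the members' quartiles, 3.61 in genes that hold both kinds and 4.13 for members over 25 untagged units. Each of these ratios kept its side of 1. The number of host genes with intervals apart, 21, was 39 without shLuc, 45 without shGFP, 149 without shFox2-1 and 344 without shFox2-2, where a condition is left with 1 value and the balance of higher and lower turns without shLuc and without shFox2-1; all 21 were among the genes called each time. Of 70 alternative values for the 10 named host genes, 0 reversed and 3 lost the call (Calu, Map1b and Slc1a5 under centring). Only centring could end a call, and 7 of the 10 genes kept it there. The pseudocount, the FPKM filter and leaving out a hairpin do not move the deposited intervals, so those settings are no test of the call. Over genes of mean FPKM of at least 1, limma called 1 host gene, as it did after centring. No paired analysis was possible because the expression columns pool the duplicates and carry no replicate number. The search for GCATG in the clusters was not run, since no mm9 genome was used here. The alternatives on coverage, finite folds and stretches were chosen after seeing the data. Intervals on folds rest on 25 units being 1 read.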
